A study of Mus musculus with 12 samples.

Results

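The early B-cell factor (EBF) genes Ebf1, Ebf2, Ebf3 and Ebf4 were examined in chromatin accessibility data from fat of mice that lack BAF60a in adipocytes. Their regions were all peaks to which the deposited tables assign the symbol of 1 of these 4 genes. The brown fat table assigned 45 of its 58558 peaks to them, of which 25 belonged to Ebf1, 10 to Ebf2, 9 to Ebf3 and 1 to Ebf4. The inguinal fat table assigned 29 of its 39558 peaks to them, of which 14 belonged to Ebf1, 6 to Ebf2, 8 to Ebf3 and 1 to Ebf4.

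Accessibility was measured by ATAC-seq, in which a transposase cuts open DNA and leaves sequencing adapters there. Flox mice (flox/flox, C57BL/6) carry the targeted BAF60a allele without Cre, and AKO mice carry it with an Adiponectin-Cre transgene, so that cells of the fat pad other than adipocytes keep BAF60a. Brown fat came from 3 flox and 3 AKO mice, whose age and housing temperature are not given in the sources used here. Inguinal fat came from mice aged 6 to 8 months that were acclimated to cold, with 10 °C for 7 days as the last step, and the fat of 6 mice per genotype was pooled. The 3 inguinal samples of a genotype were therefore aliquots of 1 pool, and their spread covers handling and sequencing but not differences between mice. Values are normalized reads, that is, reads per peak after division by the size factor of the library, and the tables were normalized separately. Reads in peaks ranged from 6336670 to 27500738 in brown fat samples and from 4066720 to 6691161 in inguinal samples.

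EBF proteins bind DNA as dimers at a short palindrome through a domain found only in this family. Ebf1 is best known for committing lymphoid progenitors to the B-cell lineage and also acts in adipocyte differentiation. Ebf2 marks the precursors of brown and beige adipocytes, where it opens chromatin at thermogenic genes and helps PPARγ to bind. Ebf3 is a close relative studied mostly in neurons, and Ebf4 is the most divergent member. BAF60a, the product of Smarcd1, is a subunit of the SWI/SNF complexes that move nucleosomes and thereby open or close such regions.

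The regions on which the results below turn are shown as genome sequence of GRCm38 (mm10), read on the plus strand, which is the coding strand of Ebf1 and Ebf2. Capitals mark matches of the consensus sequences described further on, and an entry without capitals held none. The Ebf1 gene lies on chromosome 11 from 44617317 to 45008091 and Ebf2 on chromosome 14 from 67233292 to 67430918, and none of these sequences overlaps an exon in GENCODE M21. The sequence upstream of Ebf1, chr11:44617117-44617316, ends at the base before the start site and belongs to the peak over it. The Ebf1 intron 5 sequence, chr11:44641491-44641735, is an inguinal peak that was higher in every AKO sample. The sequences of Ebf1 intron 6, chr11:44756330-44756529 and chr11:44758122-44758326, are the brown fat peaks with the smallest p-values in each direction. The Ebf2 upstream sequence, chr14:67212074-67212273, is the center of a peak that was lower in every AKO sample of both tissues. The Ebf2 intron 7 sequence, chr14:67258846-67259045, is the center of the brown fat peak with an EBF consensus.
Ebf1 upstream of start: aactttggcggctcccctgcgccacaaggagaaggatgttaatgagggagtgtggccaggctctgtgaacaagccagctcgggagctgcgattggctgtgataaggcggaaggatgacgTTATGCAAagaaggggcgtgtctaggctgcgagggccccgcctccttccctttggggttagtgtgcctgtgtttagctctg
Ebf1 intron 5: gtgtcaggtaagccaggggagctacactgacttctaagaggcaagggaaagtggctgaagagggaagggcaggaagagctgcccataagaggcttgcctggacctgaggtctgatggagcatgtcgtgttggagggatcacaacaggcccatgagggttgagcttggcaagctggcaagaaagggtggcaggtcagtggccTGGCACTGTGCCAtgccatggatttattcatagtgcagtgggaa
Ebf1 intron 6, lower fit: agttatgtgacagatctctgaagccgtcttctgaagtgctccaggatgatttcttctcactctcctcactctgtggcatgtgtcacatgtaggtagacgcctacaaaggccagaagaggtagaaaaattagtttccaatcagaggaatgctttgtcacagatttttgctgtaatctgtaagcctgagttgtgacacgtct
Ebf1 intron 6, higher fit: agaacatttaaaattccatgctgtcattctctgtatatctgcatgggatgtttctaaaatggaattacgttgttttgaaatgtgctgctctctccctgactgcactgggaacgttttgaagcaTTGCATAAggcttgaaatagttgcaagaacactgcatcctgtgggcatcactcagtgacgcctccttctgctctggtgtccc
Ebf2 upstream: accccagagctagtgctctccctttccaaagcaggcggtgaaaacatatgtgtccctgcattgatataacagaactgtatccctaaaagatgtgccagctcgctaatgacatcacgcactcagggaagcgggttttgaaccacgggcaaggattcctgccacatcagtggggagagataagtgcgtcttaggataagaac
Ebf2 intron 7: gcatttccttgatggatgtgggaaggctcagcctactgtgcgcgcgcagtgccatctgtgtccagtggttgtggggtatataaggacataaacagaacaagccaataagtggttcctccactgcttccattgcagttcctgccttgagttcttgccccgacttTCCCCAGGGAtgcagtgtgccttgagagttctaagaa

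The targeted gene could be checked in brown fat only. There a peak in intron 4 of Smarcd1 had 174 ± 33.9 normalized reads in flox mice, with AKO mice at 36.2 ± 18.9 (SD, n = 3), and a peak over its start site had 437 ± 60.5 and 442 ± 47.5. The inguinal table assigned only a start site peak to Smarcd1, which spans 99701935 to 99702768 on chromosome 15 and checks nothing about the deletion, where flox aliquots had 216 ± 30.7 and AKO aliquots 231 ± 1.83 normalized reads (SD, n = 3 aliquots). All 8 adipocyte markers on the list used here had peaks in both tables. The libraries differed along principal component 1 (PC1) of the log2 values, which ran in brown fat from −98.2 in flox replicate 1, the deepest library, to 112 in AKO replicate 2, the shallowest. PC1 scores also correlated with genotype in brown fat (r = 0.65). Fits with PC1 as covariate therefore do not fully separate it from genotype.

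Peaks were compared between AKO and flox samples within each table with limma on log2(normalized reads + 1), with the PC1 score as covariate in brown fat and an adjusted p under 0.1 as the threshold. No EBF peak passed it in either tissue (0 of 45 and 0 of 29 by limma with Benjamini-Hochberg adjustment), where it called 0% of all peaks in brown fat and 0% in inguinal fat. At an unadjusted p under 0.05, 4 of the 45 brown fat peaks were lower and 1 was higher in AKO, against 5.59% and 3.46% of all peaks. In inguinal fat, 1 of 29 was lower and 1 was higher, against 7.42% and 7.61% of all peaks. DESeq2 on the recovered reads called 0 of 37 EBF peaks that it tested in brown fat and 0 of 28 in inguinal fat, beside 0.408% and 1.18% of all peaks. The quasi-likelihood test of edgeR called 0 of 45 and 1 of 29, beside 0.143% and 4.67% of all peaks. The values below therefore describe differences that did not pass the main test. The Smarcd1 intron 4 peak in brown fat did not pass it either (limma adjusted p = 0.269). DESeq2 and edgeR called that peak (adjusted p = 4.04e-11 from DESeq2 and 0.00169 from edgeR).

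The level of the peak nearest the start site differed between the 4 genes when expressed per kb of peak. In flox brown fat it was 940.3 ± 40.0 normalized reads per kb at Ebf1, 643 ± 97.8 at Ebf3, 454 ± 10.2 at Ebf2 and 258 ± 20.8 at Ebf4 (SD, n = 3 mice). The ranges of the 3 flox mice did not overlap between neighbours in this order, with 917 to 986 at Ebf1, 566 to 753 at Ebf3, 446 to 466 at Ebf2 and 236 to 277 at Ebf4. In AKO brown fat the levels per kb ran from 572 to 785 at Ebf1 and from 516 to 674 at Ebf3, which overlap. They ran from 316 to 418 at Ebf2 and from 239 to 381 at Ebf4, which overlap as well. In flox inguinal fat the order started with Ebf2, whose nearest peak lies in intron 1 rather than over the start site, at 505 ± 103 normalized reads per kb (SD, n = 3 aliquots). Ebf1 followed at 371 ± 61.3, Ebf3 at 298 ± 24.3 and Ebf4 at 120.1 ± 34.7. The aliquots of Ebf2 and Ebf1 overlapped in range, as did those of Ebf1 and Ebf3, while the highest Ebf4 value, 148, was below the lowest Ebf3 value, 277. These levels are a description without a test, since the width of a broad peak also sets its reads per kb.

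Ebf1 was the member with the most regions and the clearest difference in brown fat. Its sum over 25 peaks was 5057, 6016 and 5587 normalized reads in flox mice and 4846, 4035 and 4375 in AKO mice. The highest AKO mouse lay under the lowest flox mouse, and the mean sum in AKO mice, 4419 ± 407, was 79.6% of the flox mean, 5553 ± 480.3 (SD, n = 3). The difference of the mean log2 sums was −0.33 (standard error, SE, 0.105, exact two-sided permutation p = 0.1, the smallest p that 3 against 3 allows). Without AKO replicate 2, the library of lowest depth, it was −0.27. With total reads in peaks as the scale it was −0.26, and the exact permutation p was 0.2 since the genotypes then overlapped. In whole tissue, fewer cells of a type and less accessibility per cell cannot be told apart.

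The Ebf1 regions lie far into the gene. Of the 25 brown fat peaks, 1 lay upstream, 1 covered the start site and 23 were intronic, 21 of them in intron 6, and they reached 250 kb downstream of the start. The fitted log2 fold change was below 0 at 21 of the 25, against 49.1% of all brown fat peaks, with a median of −0.32. Without the PC1 covariate 18 of 25 were below 0, and 17 of 25 had a lower mean in AKO than in flox mice. Values below 0 were found at 8 of the 9 peaks within 100 kb of the start and at 13 of the 16 farther away. At 6 of the 25 peaks all AKO values were lower than all flox values, and at 0 of 25 all were higher. Over all brown fat peaks 8.84% were lower and 8.77% higher without overlap.

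The peak over the Ebf1 start site, chr11:44616851-44617471, had 570.1, 613 and 569 normalized reads in flox mice and 488, 355 and 419 in AKO mice. The genotypes did not overlap at this promoter, where AKO mice reached 72.1% of the flox mean. Its log2 fold change in the fit was −0.33 (SE 0.197, limma adjusted p = 0.660). In inguinal fat the same region, chr11:44616957-44617403, had 183, 180.1 and 134 normalized reads in flox aliquots and 175, 196 and 199.95 in AKO aliquots. Here the genotypes overlapped, and the log2 fold change was 0.21 (SE 0.164, limma adjusted p = 0.589).

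**Figure D1:**
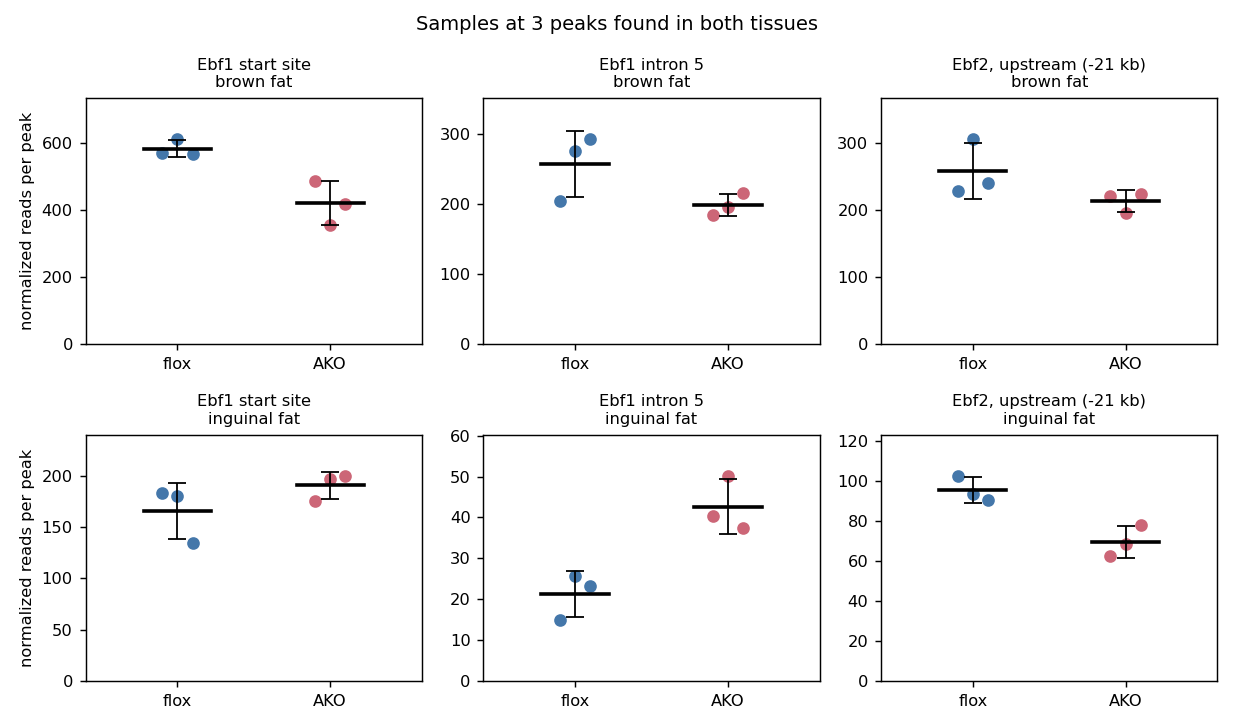
Normalized reads per peak (vertical axis, linear from 0) in the 3 flox and 3 AKO samples of brown fat (upper row, mice) and inguinal fat (lower row, aliquots of 1 pool per genotype) at 3 regions with a peak in both tables. Points are samples, thick lines means and error bars 1 SD; AKO samples lie below all flox samples at the Ebf1 start site in brown fat and at the Ebf2 upstream region in both tissues, and above them at Ebf1 intron 5 in inguinal fat only.

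The strongest Ebf1 peak in both tables lies 48.8 kb into the gene, in intron 6. In brown fat, chr11:44665195-44667106, it had 826, 976 and 905 normalized reads in flox mice and 758, 504 and 702 in AKO mice, again without overlap. Its AKO mean was 72.6% of the flox mean, with a log2 fold change of −0.30 (SE 0.233, limma adjusted p = 0.735). That value was −0.088 without flox replicate 3 and −0.48 without PC1. In inguinal fat, chr11:44665243-44667033, it had 257, 188 and 250.5 normalized reads in flox aliquots and 157, 191 and 202 in AKO aliquots. The aliquots overlapped there, because flox replicate 2 was as low as the AKO values, and the log2 fold change was −0.33 (SE 0.178, limma adjusted p = 0.425).

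The neighbouring part of intron 6 held further brown fat peaks at which the genotypes did not overlap. The peak from 44657458 to 44658455 counted 398, 443 and 417 normalized reads in flox mice and 293, 245 and 300.3 in AKO mice, a mean of 66.6% of flox. The peak from 44663540 to 44663813 had 117, 139 and 86.7 in flox mice and 51.5, 69.5 and 74.8 in AKO mice, a mean of 57.2% of flox. Their log2 fold changes were −0.50 and −0.73 (SE 0.190 and 0.303, limma adjusted p = 0.531 and 0.548). Far downstream in the same intron, the peak from 44851929 to 44852198 had 83.6, 126 and 85.4 in flox mice and 67.0, 67.6 and 62.4 in AKO mice. The sixth, from 44810898 to 44811363, had 186, 171 and 168.2 in flox mice and 168.0, 114 and 157 in AKO mice, and AKO replicate 1 nearly touched flox replicate 3. With the PC1 covariate its fitted log2 fold change was −0.01, so that lack of overlap and a fitted difference did not coincide there.

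The smallest p-values at Ebf1 in brown fat belonged to weak, narrow peaks. The peak from 44756330 to 44756529, shown above as the lower fit, had 27.2, 32.5 and 37.5 normalized reads in flox mice and 22.7, 36.7 and 22.1 in AKO mice. The genotypes overlapped because AKO replicate 2 was high, and the log2 fold change of −0.72 (SE 0.182, limma adjusted p = 0.441) depended on PC1 in the fit and was −0.27 when PC1 was left out. The peak from 44758122 to 44758326, 1.8 kb farther on and shown as the higher fit, had 34.0, 51.0 and 27.2 in flox mice and 60.8, 40.6 and 58.5 in AKO mice. It too overlapped, with a log2 fold change of 0.87 (SE 0.300, limma adjusted p = 0.506). The inguinal table held a peak at neither position.

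In inguinal fat the summed accessibility of Ebf1 did not separate the genotypes. The sum over 14 peaks was 1113, 937 and 997 normalized reads in flox aliquots and 954, 1034 and 1006 in AKO aliquots. The AKO mean was 98.3% of the flox mean, and the difference of mean log2 sums was −0.02 (SE 0.080, exact two-sided permutation p = 0.9). Log2 fold changes were below 0 at 9 of 14 peaks, against 50.1% of all inguinal peaks, with a range from −0.42 to 0.99. At 1 of the 14 peaks all AKO aliquots were lower and at 2 all were higher, against 10.3% and 10.6% of all inguinal peaks.

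The inguinal peak in Ebf1 intron 5 was the EBF peak with the smallest p-value in the study. It had 15.0, 25.6 and 23.2 normalized reads in flox aliquots and 40.3, 50.2 and 37.4 in AKO aliquots, so that all 3 AKO values were higher and the mean was 2.01-fold that of flox. The log2 fold change was 0.99 (SE 0.223, limma adjusted p = 0.152), which misses the threshold. Only edgeR called it (adjusted p = 0.0657 from edgeR), while DESeq2 did not (adjusted p = 0.167 from DESeq2). The region is wider and stronger in brown fat, chr11:44641458-44642028, with 204, 275 and 292 normalized reads in flox mice and 185, 195 and 216 in AKO mice. The brown fat genotypes overlapped and the log2 fold change was −0.53 (SE 0.221, limma adjusted p = 0.549), a sign opposite to that in inguinal fat.

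Further inguinal Ebf1 peaks in intron 6 differed without overlap and without passing the test. The peak from 44724024 to 44724489 counted 59.2, 50.03 and 65.4 normalized reads in flox aliquots and 48.4, 48.0 and 34.2 in AKO aliquots (log2 fold change −0.42, SE 0.186, limma adjusted p = 0.346). It had no counterpart in brown fat. The peak from 44702664 to 44702884 had 37.8, 30.02 and 34.4 in flox aliquots and 51.9, 38.8 and 42.8 in AKO aliquots, a log2 fold change of 0.37.

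**Figure D2:**
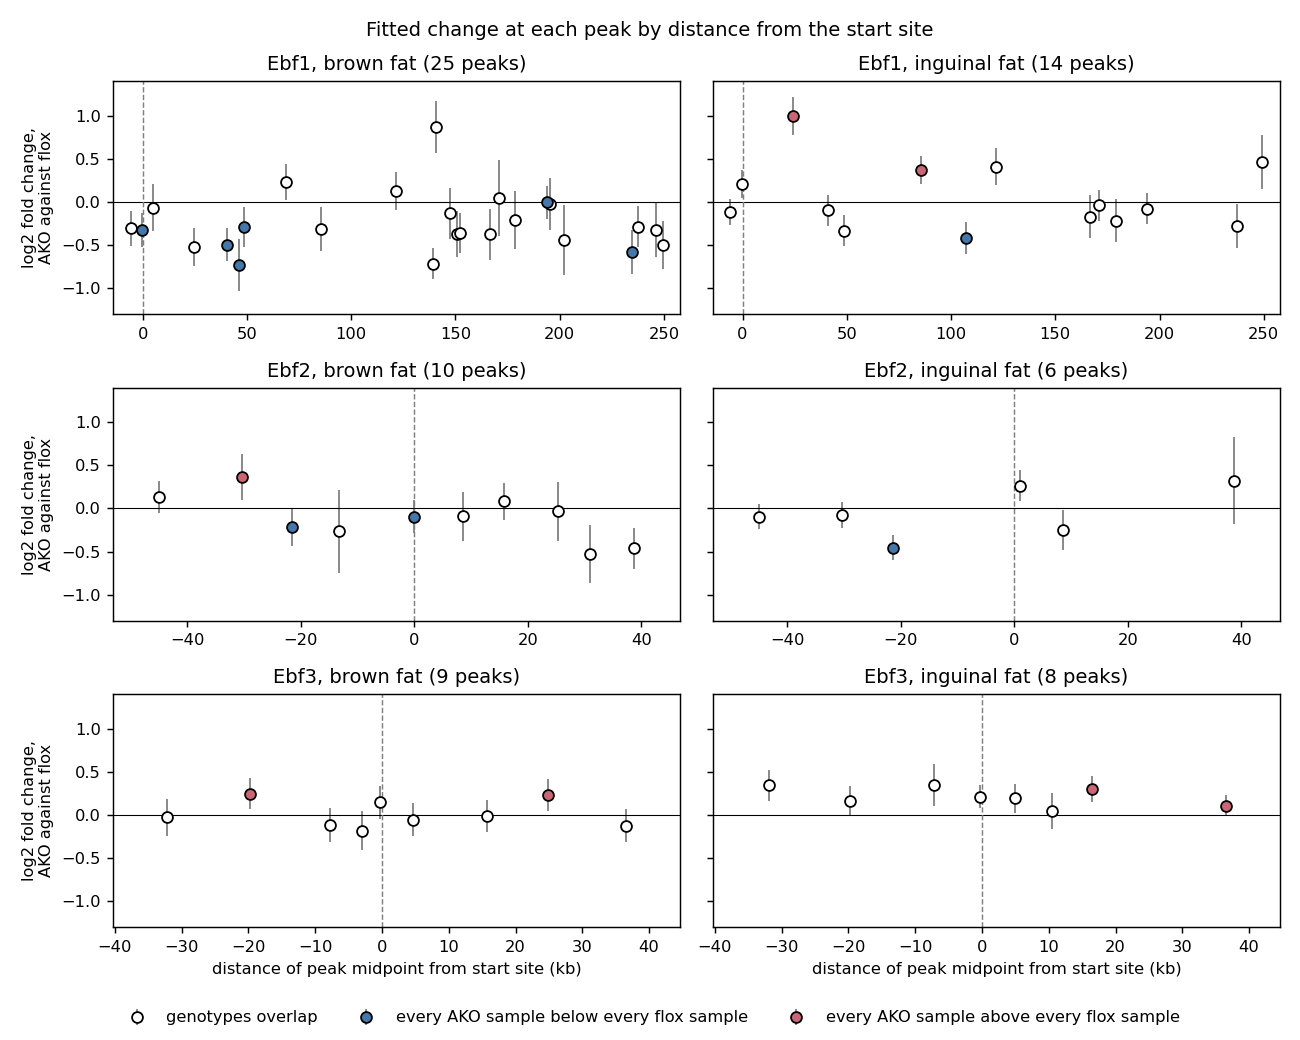
Fitted log2 fold change, AKO against flox (vertical axis, error bars 1 standard error from limma), of every Ebf1, Ebf2 and Ebf3 peak by the distance of its midpoint from the start site in kb (horizontal axis, positive into the gene), in brown fat (left) and inguinal fat (right). Filled points mark peaks at which the 3 AKO samples lie beyond the 3 flox samples. Of the Ebf1 peaks in brown fat, 21 of 25 lie below 0, and the 8 Ebf3 peaks in inguinal fat lie above 0, all with an adjusted p above 0.1.

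Ebf2, the factor of brown and beige precursors, had a smaller difference in brown fat. The sum over its 10 peaks was 3014, 3156 and 3006 normalized reads in flox mice and 2829.8, 2374 and 3016 in AKO mice. The genotypes overlapped, since AKO replicate 3 was at the flox level, and AKO replicate 2 was the lowest. The AKO mean was 89.6% of the flox mean, with a difference of mean log2 sums of −0.17 (SE 0.106, exact two-sided permutation p = 0.3). Without AKO replicate 2 this difference was −0.07. Of the 10 peaks, 7 had a log2 fold change below 0, with a median of −0.09, while 2 were lower and 1 was higher in AKO without overlap, against 8.84% and 8.77% of all brown fat peaks.

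The peak over the Ebf2 start site, chr14:67232044-67234884, was the widest and strongest of all EBF peaks in brown fat. It had 1267, 1323 and 1282 normalized reads in flox mice and 1187.6, 898 and 1178 in AKO mice. No AKO mouse reached the flox range, and the AKO mean was 84.3% of the flox mean. With PC1 in the fit the log2 fold change was −0.09 (SE 0.194, limma adjusted p = 0.904). In inguinal fat a narrower peak in intron 1, chr14:67234353-67234773, overlapped it and had 225, 249 and 164 normalized reads in flox aliquots and 233, 267 and 256 in AKO aliquots. Flox replicate 3 was low, the genotypes overlapped, and the log2 fold change was 0.26 (SE 0.182, limma adjusted p = 0.540).

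A region 21.4 kb upstream of Ebf2 was lower in AKO in both tissues without overlap. In brown fat, chr14:67211794-67212488, it had 228, 306 and 241 normalized reads in flox mice and 221, 195 and 225 in AKO mice. The gap between the genotypes was small, with the highest AKO mouse at 225 and the lowest flox mouse at 228, and the log2 fold change was −0.21 (SE 0.220, limma adjusted p = 0.799). In inguinal fat, chr14:67211901-67212448, it had 103, 93.4 and 90.4 in flox aliquots and 62.2, 68.5 and 78.1 in AKO aliquots. The AKO mean was 72.9% of the flox mean, and the log2 fold change was −0.45 (SE 0.142, limma adjusted p = 0.219). It was the only 1 of 27 EBF regions found in both tables that was lower in this way in both, against 1.05% of all 31936 overlapping pairs of peaks.

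Other upstream regions of Ebf2 went different ways. The brown fat peak from 67202942 to 67203495, 30.4 kb upstream, had 77.9, 104 and 98.3 normalized reads in flox mice and 105, 166 and 172 in AKO mice. All AKO mice were higher, AKO replicate 1 barely so, and the log2 fold change was 0.36 (SE 0.267, limma adjusted p = 0.717). It was 0.081 without AKO replicate 3, 0.71 without AKO replicate 1 and 0.63 without PC1. The overlapping inguinal peak, from 67203068 to 67203495, had 99.8, 100.1 and 82.6 in flox aliquots and 92.2, 95.9 and 79.1 in AKO aliquots, which overlap. The strongest inguinal Ebf2 peak, from 67188023 to 67189245 and 45.0 kb upstream, had 358, 284 and 308 in flox aliquots and 309, 276 and 299 in AKO aliquots. In brown fat the same region, from 67188055 to 67189258, had 892, 776 and 705 in flox mice and 728, 556 and 831 in AKO mice. The genotypes overlapped in both tissues, with log2 fold changes of −0.10 and 0.13 (SE 0.142 and 0.187, limma adjusted p = 0.789 and 0.856).

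Inside the gene, the Ebf2 peak with the smallest p-value among the lower ones in brown fat lay in intron 7 (67272163 to 67272533). It had 96.1, 132 and 129 normalized reads in flox mice and 82.5, 94.6 and 110.3 in AKO mice, with overlap through flox replicate 1 (log2 fold change −0.46, SE 0.236, limma adjusted p = 0.608). Its inguinal counterpart, from 67272184 to 67272404, was weak and variable, with 44.2, 10.01 and 30.1 in flox aliquots and 36.9, 36.5 and 20.3 in AKO aliquots. Summed over 6 peaks, inguinal Ebf2 had 871, 776 and 705 normalized reads in flox and 756, 783 and 765 in AKO aliquots. The AKO values sat inside the flox range, at 98.0% of the flox mean (difference of mean log2 sums −0.02, SE 0.090, exact two-sided permutation p = 0.8).

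Ebf3 had similar sums in both genotypes of brown fat and separate ones in inguinal fat. In brown fat its 9 peaks summed to 4238, 3773 and 4102 normalized reads in flox mice and 3892, 3789 and 4136 in AKO mice. The ranges overlapped, and the AKO mean was 97.6% of the flox mean (difference of mean log2 sums −0.03, SE 0.062, exact two-sided permutation p = 0.8). In inguinal fat its 8 peaks summed to 957, 981 and 1004 in flox aliquots and 1082, 1174 and 1119.5 in AKO aliquots. Every AKO aliquot was above every flox aliquot, the AKO mean was 115% of the flox mean, and the difference of mean log2 sums was 0.20 (SE 0.039, exact two-sided permutation p = 0.1, the smallest possible). Log2 fold changes were above 0 at 8 of 8 inguinal peaks, from 0.04 to 0.35 with a median of 0.20, while 50.1% of all inguinal peaks were below 0. At 2 of the 8 all AKO aliquots were higher and at 0 all were lower, against 10.6% and 10.3% of all inguinal peaks.

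The peak over the Ebf3 start site, on chromosome 7 from 137313920 to 137315439 in brown fat, was the strongest peak near a start site after that of Ebf2 in reads per peak. It had 1144, 861 and 925 normalized reads in flox mice and 1025, 784 and 932 in AKO mice, which overlap (log2 fold change 0.15, SE 0.191, limma adjusted p = 0.839). In inguinal fat, from 137314159 to 137315370, it had 336, 354 and 393 in flox aliquots and 391, 436 and 427 in AKO aliquots. Flox replicate 3 and AKO replicate 1 overlapped by a small margin, and the log2 fold change was 0.21 (SE 0.133, limma adjusted p = 0.496).

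Other Ebf3 regions had modest values. The inguinal peak with the smallest p-value, spanning 137297898 to 137298169 in intron 6, had 44.2, 45.6 and 43.0 normalized reads in flox aliquots and 62.2, 55.9 and 47.0 in AKO aliquots (log2 fold change 0.30, SE 0.146, limma adjusted p = 0.387). The widest inguinal Ebf3 peak, from 137277148 to 137278739, also did not overlap between genotypes, with 260.2, 246 and 257 in flox aliquots and 284, 273 and 265 in AKO aliquots. In brown fat the region from 137297898 lay within a wide peak from 137297721 to 137299827 with 533, 483 and 516 in flox mice and 461, 458 and 541 in AKO mice, which overlap. Upstream, the brown fat peak from 137333807 to 137334596 had 322, 339.9 and 310.5 in flox mice and 405, 361 and 349 in AKO mice. All AKO mice were higher there (log2 fold change 0.25, SE 0.182, limma adjusted p = 0.717), and in inguinal fat the same region, from 137333972 to 137334524, had 59.2, 76.7 and 57.7 in flox aliquots and 64.5, 69.6 and 82.3 in AKO aliquots. The brown fat peak 2.9 kb upstream, from 137317025 to 137317721, had 425, 337 and 391 in flox mice and 285, 288 and 376 in AKO mice, with a log2 fold change of −0.18. Another peak of brown fat, in intron 6 and spanning 137289231 to 137289980, had 104, 126 and 179 in flox mice and 185, 265 and 203 in AKO mice, where all AKO mice were higher.

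Ebf4 had a single peak in each table, at its start on chromosome 2. In brown fat, from 130294933 to 130296190, it had 297, 349 and 329 normalized reads in flox mice and 301, 479 and 379 in AKO mice. AKO replicate 2 stood highest and the genotypes overlapped, with an AKO mean of 119% of flox (exact two-sided permutation p = 0.4 on log2 values). The fitted log2 fold change with PC1 was −0.05 (SE 0.212, limma adjusted p = 0.961), and without PC1 it was 0.23, so that its sign depended on the covariate. In inguinal fat, from 130295013 to 130295224, it had 31.4, 27.8 and 17.2 in flox aliquots and 23.1, 38.8 and 31.0 in AKO aliquots (log2 fold change 0.28, SE 0.269, limma adjusted p = 0.660).

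**Figure D3:**
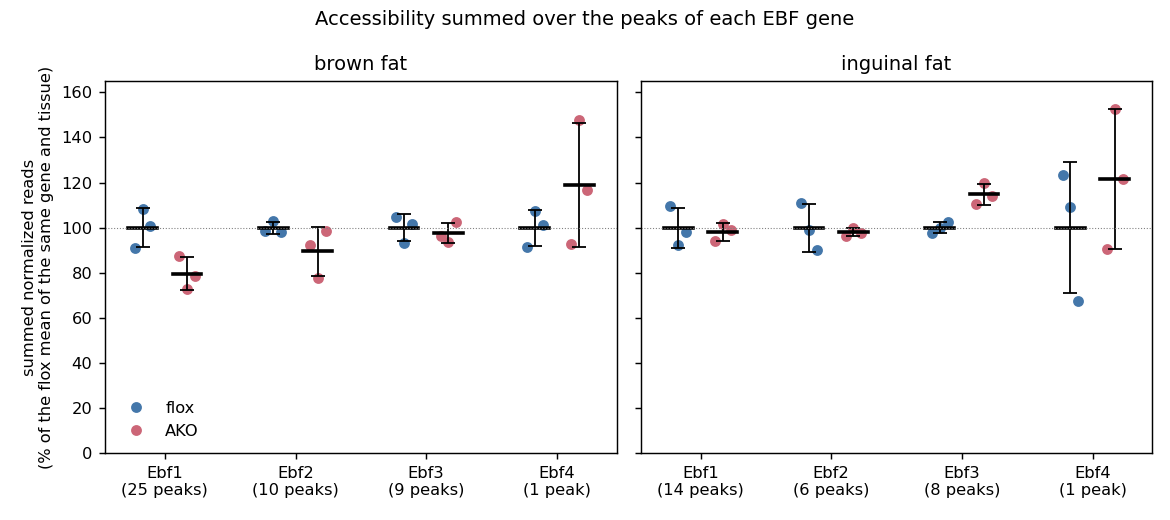
Normalized reads summed over all peaks of each EBF gene, as percent of the flox mean of the same gene and tissue (vertical axis, linear from 0), for the 3 flox and 3 AKO samples of brown fat (left, mice) and inguinal fat (right, aliquots of 1 pool per genotype). Thick lines are means and error bars 1 SD; the genotypes separate at Ebf1 in brown fat, with an AKO mean of 79.6%, and at Ebf3 in inguinal fat, with an AKO mean of 115%.

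Most EBF regions of inguinal fat were also peaks in brown fat. With 1 shared base as the minimum, 27 of the 29 inguinal EBF peaks overlapped 27 of the 45 brown fat EBF peaks. The values of both tissues are set side by side without a test, since the tables were normalized separately. Among the 27 pairs, 9 had log2 fold changes below 0 in both tissues, 3 above 0 in both, 12 below 0 in brown fat and above 0 in inguinal fat, and 3 the reverse. Over all 31936 pairs of peaks, 6652 were below 0 in both tissues and 10369 above 0 in both. Another 6307 were below 0 in brown and above 0 in inguinal fat, and 8608 the reverse. Of the 13 Ebf1 pairs, 7 were below 0 in both tissues, and of the 7 Ebf3 pairs, 5 were below 0 in brown and above 0 in inguinal fat, with no test of a difference between the genes. At 0 of 27 pairs were the genotypes separated in opposite directions in both tissues, against 470 of all 31936 pairs.

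**Figure D4:**
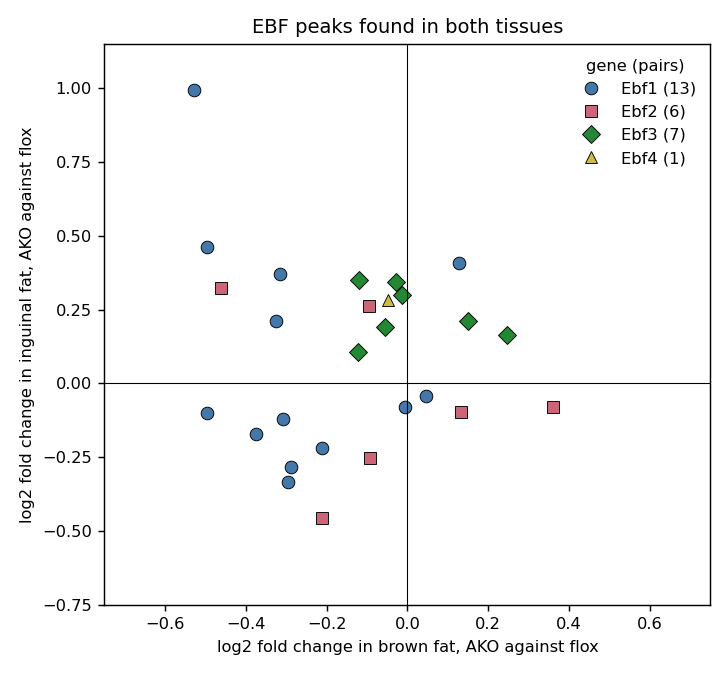
Log2 fold change, AKO against flox, in brown fat (horizontal axis) and inguinal fat (vertical axis) for the 27 EBF regions with a peak in both tables, by gene. Points left of and under both zero lines (9) are below 0 in both tissues, and those left of and above them (12) are below 0 in brown fat and above 0 in inguinal fat.

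Consensus sequences were searched on both strands in the central 200 bases of every peak. The EBF palindrome (TCCC and GGGA with 2 bases between them), bound by the members themselves, occurred in 1 of 45 brown fat EBF peaks (2.22%) and 0 of 29 inguinal ones, against 1.84% and 1.196% of all peaks. That match is the TCCCCAGGGA in Ebf2 intron 7 printed above, in a peak whose log2 fold change was −0.03. Over whole peaks the palindrome occurred in 3 of 45 brown fat EBF peaks, against 4.44% of all. It occurred in 0 of 29 inguinal ones, against 3.07%. The C/EBP consensus TTGCNNAA, for the leucine zipper factors that drive adipocyte differentiation, occurred in 15 of 45 brown fat EBF peaks (33.3%), 11 of them at Ebf1, against 11.01% of all brown fat peaks. In inguinal fat it occurred in 6 of 29 EBF peaks (20.7%), against 10.3% of all peaks. Over whole peaks the shares were closer in inguinal fat, with 7 of 29 EBF peaks (24.1%) against 21.4% of all. In brown fat they were 21 of 45 (46.7%) against 25.5%. One of these matches, TTATGCAA, lies at chr11:44617236-44617243 upstream of the Ebf1 start site and is the match printed above, in the start site peak of both tables. The nuclear factor I palindrome (TGGC and GCCA with 5 bases between them) was found in 1 EBF peak of each table, which is the intron 5 region of Ebf1 printed above, against 1.58% of all brown fat and 1.201% of all inguinal peaks. No central window of an EBF peak held the PPAR response element (a pair of AGGNCA with 1 base between them), found in 0.596% of all brown fat and 0.480% of all inguinal peaks. None held the CTCF core (CC, 3 bases of any kind, then AGGGGGC), found in 1.12% and 1.07%. A match describes letters only, and the motifs do not overlap within the sequences printed.

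Genes known to work with EBF factors in fat were counted in the same fits. The list of 10 cofactors and partners had 128 brown fat peaks, of which 69 were below 0 with a median log2 fold change of −0.05, and limma called 0 of them. At an unadjusted p under 0.05, 10 were lower and 3 higher, beside 5.59% and 3.46% of all brown fat peaks. At 20 of the 128 every AKO mouse was lower and at 8 every AKO mouse was higher, against 8.84% and 8.77% of all brown fat peaks. Of the 20, 11 were Pparg peaks and 5 Cebpa peaks. DESeq2 called 1 of the 99 that it tested, a Cebpa peak, and edgeR 0 of the 128, against 0.408% and 0.143% of all peaks. Pparg, the nuclear receptor that directs adipogenesis, was below 0 at 20 of 21 brown fat peaks and Cebpa, a C/EBP factor of mature adipocytes, at 8 of 10, with medians of −0.33 and −0.34. The zinc finger gene Zfp423, an inhibitor of Ebf2 in white fat, was below 0 at 12 of 30 with a median of 0.07, and Dpf3, which encodes a BAF subunit found with Ebf2, at 4 of 17 with a median of 0.14. In inguinal fat 28 of 64 peaks of the list were below 0 with 0 called by limma. At an unadjusted p under 0.05, 6 were lower and 8 higher. DESeq2 called 0 of the 61 that it tested, and edgeR called 6 of the 64. These shares stand beside 7.42% and 7.61% of all inguinal peaks at that p, and 1.18% and 4.67% called by DESeq2 and edgeR. Without overlap, 5 of the 64 were lower and 9 higher, against 10.3% and 10.6% of all inguinal peaks. Cebpa was below 0 at 5 of 5 with a median of −0.40. Pparg was below 0 at 3 of 6 (median −0.01), Zfp423 at 6 of 23 (0.07) and Dpf3 at 0 of 4 (0.38).

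The list of 14 thermogenic genes known as targets of Ebf2 had 110 brown fat peaks, of which 93 were below 0 with a median of −0.36, against 49.1% and a median of 0.01 over all brown fat peaks. At 40 of the 110 every AKO mouse was lower and at 1 every AKO mouse was higher, against 8.84% and 8.77% of all brown fat peaks. None of the 110 passed in limma (0 calls), with 37 lower and 1 higher at an unadjusted p under 0.05, against 5.59% and 3.46% of all peaks. DESeq2 called 10 of the 83 that it tested, of which 9 were lower, and edgeR 7 of the 110, against 0.408% and 0.143% of all peaks. Ppargc1a, a coactivator of mitochondrial genes, was below 0 at 33 of 33 peaks, Dio2, a deiodinase that activates thyroid hormone, at 16 of 16 and Ucp1, the uncoupling protein, at 11 of 12. Acot11, an acyl-CoA thioesterase gene, was below 0 at 1 of 9 peaks with a median of 0.18 and had 1 DESeq2 call, which was higher, while Cidea was below 0 at 3 of 5 and Cox8b at 1 of 2. In inguinal fat 13 of the list's 45 peaks were below 0, the median was 0.20, and 12 of 45 were higher without overlap while 3 were lower, against 10.6% and 10.3% of all inguinal peaks. Limma called 0 of these, with 1 lower and 12 higher at an unadjusted p under 0.05, against 7.42% and 7.61% of all peaks. DESeq2 called 2 of the 42 that it tested, both higher, and edgeR 6 of the 45, against 1.18% and 4.67% of all peaks.

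Signal at markers of cell types was summed to stand beside the Ebf1 values. Such sums mix cell numbers with accessibility per cell, which cannot be told apart here. All brown adipocyte markers but Zic1 are also on the list of Ebf2 targets above. B-cell genes matter here because B cells also use Ebf1. Of the 11 B-cell markers, Cd79a, Cd79b and Ms4a1 had no peak in either table, and the summed signal of the 8 with brown fat peaks was 908 to 1208 normalized reads in flox and 1234 to 1875 in AKO mice. In the fit with PC1, 8 of these 15 B-cell peaks were below 0, with a median log2 fold change of −0.07. Without PC1, 4 of the 15 were below 0, with a median of 0.41. At 3 of the 15 every AKO mouse was higher and at 1 every AKO mouse was lower, against 8.77% and 8.84% of all brown fat peaks. The brown adipocyte markers summed to 26537 to 31795 in flox and 18531 to 20373 in AKO brown fat, and the general adipocyte markers to 30199 to 34257 and 21143 to 29093. Adipocyte precursor markers, of which Lum and Ly6a had no peak, summed to 3176 to 3399 and 3086 to 3347, and mural cell markers, without Rgs5, to 5142 to 5741 and 4338 to 5278. T-cell markers, of which 3 of 8 had peaks in brown fat and Cd3e, Cd3g and Lck had none in either table, ran from 1454 to 1815 in flox and from 1649 to 2103 in AKO brown fat, macrophage markers, of which 4 of 7 had peaks and Cd68 had none in either table, from 199 to 366 and from 248 to 336, and endothelial markers from 2823 to 3094 and from 2900.4 to 3289. Inguinal sums cover the markers with inguinal peaks, which were not always the genes with brown fat peaks. These were 4 of 11 for B cells, 4 of 8 for T cells, 4 of 7 for macrophages and 5 of 7 for endothelial cells. In inguinal fat the sums in flox and AKO were 234 to 268 and 225 to 263 for B cells. They were 1898 to 2169.9 and 2044 to 2301 for brown adipocytes and 5034 to 6025 and 5199 to 5664 for adipocytes. Precursors had 1981 to 2183 and 1872 to 2115, and mural cells 1505 to 1558 and 1565 to 1622. T cells had 657 to 688 and 548 to 655, macrophages 205 to 251 and 175 to 209, and endothelial cells 899 to 972 and 784 to 860. The part of the marker sums in the EBF values was not tested.

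Genes whose summed accessibility varied most like that of a member were ranked over 4410 genes and the 12 samples, after centring log2 sums within each table. The closest to Ebf1 were Bcl6, a transcriptional repressor (r = 0.92), Nfia, a nuclear factor I gene (r = 0.92), and Lamb3, a laminin chain (r = 0.91), where the 99th percentile of all genes was 0.82. Ebf2 itself had r = 0.73 with Ebf1. The closest to Ebf2 were Ahcyl1 (0.91), the clock repressor Cry2 (0.88) and Nicn1 (0.88), and to Ebf3 Tspan9 (0.91), the tau gene Mapt (0.89) and Endod1 (0.87). Ebf4, with 1 peak per table, was closest to C130026L21Rik (0.89), Rtn4rl2 (0.85) and Eef2kmt (0.85). Ebf3 had r = −0.03 with Ebf1 and 0.06 with Ebf2. These correlations describe samples that share genotype, library depth and normalization and carry no test.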

How the data were processed

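ATAC-seq reads had been mapped to mm10 by the authors with BWA 0.7.17-r1188 and counted over the union of broad MACS2 2.1.1.20160309 peaks, kept where at least 2 of 3 replicates of a genotype had a call (tool versions per the submitters' notes). Each deposited signal value is a read count per peak over the library's size factor, as computed by the authors. Fold changes, p-values and adjusted p-values of the authors' DESeq2 fit stand beside them and were not used. Every sample column was used (0 unused). Dividing by the smallest step returned whole reads for 100% of values (tolerance 0.001), with medians of 70 to 226 reads per peak in brown and 62 to 98 in inguinal samples.

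The members and lists were chosen with earlier results of these data known. For each table, limma 3.58.1 (lmFit, eBayes, R 4.3.3) compared AKO with flox samples on the scale log2(normalized reads + 1), and p-values were adjusted over all peaks by Benjamini-Hochberg, with 0.1 as the threshold. As in the study's methods, PC1 was a covariate in brown fat only. DESeq2 1.42.0 and edgeR 4.0.16 on the recovered reads served as alternatives. Sums per gene were compared by exact two-sided permutation over samples. In data simulated on each table, 95 of 100 brown fat peaks changed by 2 log2 units were called by limma and 0 of 100 changed by 1, while in inguinal fat 78 of 100 changed by 1 were called. In both tables the changed peaks had a mean of at least 100 normalized reads. The inguinal EBF peaks had a median of 59.7, so these shares do not cover most of them.

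For each gene and table the peak nearest the start site, the strongest peak and the peaks with the smallest limma p in each direction were given in full, with an overlapping peak of the other table, and so were peaks without overlap between genotypes. For likeness, the 3 genes with the highest Pearson r were named among genes with at least 3 peaks in each table. Starts, counted from 0 in the deposited peak names, were written from 1, and positions follow GENCODE M21 on GRCm38. Genome sequence is that of RefSeq for GRCm38. Planted motif sites were found in 1000 of 1000 cases. Exact tests used numpy 2.4.6 under Python 3.11.15, and figures matplotlib 3.10.9.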

Additional observations from a re-analysis of the deposited data

How the results depend on the processing

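Calls at EBF peaks stayed at 0 in brown fat under all alternatives run, and in inguinal fat under all but edgeR, which called 1. The cofactor and target genes, with 0 calls by limma, had 11 calls by DESeq2 and 7 by edgeR in brown fat, and 2 and 12 in inguinal fat. Restricted to 100 kb of the start, 22 brown fat and 7 inguinal EBF peaks were below 0, of which 8 brown fat peaks were at Ebf1. This follows from fewer peaks. Scaling by total reads turned the Ebf3 sum in brown fat to 0.038 and averaging log2 values over peaks to 0.037. Averaging turned the Ebf1 sum in inguinal fat to 0.049, and peaks of the gene body turned that of Ebf2 to 0.086. The causes were not tested. PC1 as a covariate in inguinal fat, where it correlates with genotype at r = 0.99, left 5 of 8 Ebf3 peaks above 0 and reversed the inguinal peaks from 44641491 (−2.57), 44665243 (1.33), 67188023 (1.09), 67211901 (1.12), 137297898 (−0.81) and 137314159 (−0.29). Without PC1 in brown fat, the Ebf3 peak from 137313920 was at −0.094 and the Ebf4 peak at 0.23.

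With each sample left out in turn, log2 differences of the sums ran from −0.083 to 0.00087 for Ebf3 in brown fat, and from −0.078 to 0.046 for Ebf1 and −0.099 to 0.054 for Ebf2 in inguinal fat. Brown fat peaks ran from −0.16 to 0.062 at the Ebf2 start site, from −0.37 to 0.024 at the Ebf3 peak from 137317025 and from −0.31 to 0.16 at Ebf4. The Ebf1 sum in brown fat kept its direction, from −0.40 to −0.27, as did the Ebf3 sum in inguinal fat, from 0.17 to 0.23.

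Replicate numbers did not pair the samples. Deviations of same-numbered samples correlated at 0.49, 0.06 and −0.24 in brown fat and at −0.04, −0.05 and −0.06 in inguinal fat. With a replicate block, 0 EBF peaks were called in either tissue, and 19 of 25 Ebf1 peaks were below 0 in brown fat, or 18 of 25 with the block and no PC1. The Ebf3 peak from 137313920 was then at −0.0092 and −0.094, and the Ebf4 peak at 0.12 and 0.23.

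Precision was limited by 3 mice against 3, which allow no exact p under 0.1, and by aliquots of 1 pool in inguinal fat. Of 100 simulated brown fat peaks changed by 1 log2 unit, limma called 0, DESeq2 67 and edgeR 69, while the median log2 fold change at Ebf1 was −0.32. These simulated peaks all had a mean of at least 100 normalized reads.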

Other observations

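Further peaks inside the EBF genes carry the symbols of other genes in the deposited tables. This count was made after the values were seen. In brown fat, 9 of the 33 peaks inside Ebf1 were assigned to Gm12159, 17 of the 23 inside Ebf2 to 4930438E09Rik or Gm6878 and 9 of the 14 inside Ebf3 to Gm10578. In inguinal fat it was 6 of 19, 5 of 8 and 6 of 11. Limma, DESeq2 and edgeR called 0 of these peaks. At an unadjusted limma p under 0.05, 2 of the 9 inside Ebf1 were lower in AKO in brown fat. It was 0 of the 17 inside Ebf2 and 0 of the 9 inside Ebf3, against 5.59% of all brown fat peaks. None of these brown fat peaks was higher at that p, and in inguinal fat none was lower or higher.

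Of the 9 peaks inside Ebf1 under the symbol Gm12159 in brown fat, 4 had a log2 fold change below 0, with a median of 0.04 and a range from −0.82 to 0.51, and 2 of 9 were lower in every AKO mouse. Over all 33 peaks inside Ebf1, 24 were below 0, 8 were lower in every AKO mouse and 0 were higher, against 8.84% and 8.77% of all brown fat peaks. The other peaks inside Ebf2 had 8 of 17 below 0 in brown fat and 2 of 5 in inguinal fat, with medians of 0.01 and 0.05. Those inside Ebf3 had 4 of 9 below 0 in brown fat and 1 of 6 in inguinal fat, with medians of 0.06 and 0.18. Summed over all peaks inside the gene, the log2 difference of Ebf1 in brown fat was −0.32 and that of Ebf3 in inguinal fat 0.14 (exact two-sided permutation p = 0.1 for each, the smallest possible).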
